A study of Mus musculus with 14 samples.

Results

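Sgk1 is the serum- and glucocorticoid-regulated kinase, a relative of Akt whose transcript responds to corticosteroids in many tissues. It is described here with 7 other genes of corticosteroid signalling in mouse hippocampal neuron cultures made more active with picrotoxin. The set holds its relative Sgk3, the glucocorticoid receptor Nr3c1, the mineralocorticoid receptor Nr3c2, and 4 widely used marker genes of receptor activity (Fkbp5, Tsc22d3, Zbtb16 and Klf9). These 8 genes were taken by name from 43629 gene identifiers in the count tables, and all 8 were among the 15959 genes with enough counts to be tested. The set was selected on the fold changes and calls of the picrotoxin contrast itself, so the members' own differences are given as a description, with no p-value. Where a member is said to be called or not, this only restates its side of the threshold in the fit over all genes. The question was whether Sgk1 moved together with targets of the corticosteroid receptors.

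RNA was sequenced from primary hippocampal cultures of wild-type C57BL6 pups, plated at postnatal day 0 to 1 and grown in dishes for 14 days. The CTRL group (4 libraries) received the solvent DMSO at 0.1% and the PTX group (4 libraries) received picrotoxin at 100 µM, both for 15 h. Picrotoxin closes the chloride channel of GABA-A receptors, which removes fast inhibition and makes the network fire more. Both groups grew in medium with the B27 supplement, which is known to contain corticosterone, so the controls are not cultures without hormone, and the labels name no added hormone or receptor blocker. A second data type was 1 list of peaks for the chromatin reader L3mbtl1, made by ChIP-seq from hippocampus of C57BL6/129 mice at postnatal day 7 to 8, with 3 wild-type and 3 L3mbtl1-/- samples. Cultures hold neurons and glia together, and in such bulk RNA fewer cells of a type and less RNA per cell cannot be told apart. The labels do not say whether the replicates are separate cultures or animals, so the spread between libraries may be partly technical.

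Corticosteroids act through a pair of nuclear receptors. Without hormone the glucocorticoid receptor waits in the cytosol in a complex with Hsp90 and its cochaperones. With hormone it enters the nucleus and binds response elements, which raises genes such as Fkbp5, Tsc22d3, Per1 and Sgk1. In the hippocampus the mineralocorticoid receptor is abundant too and binds corticosterone with higher affinity. Several of these targets, Sgk1 among them, are also known to respond to calcium, cyclic AMP or growth factor signals in other settings.

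Each library held 14524916 to 19498189 counts in genes, and 22513 to 23535 genes had at least 1 count. Between the groups 3034 genes rose and 3214 fell, which is 39.2% of the genes tested (edgeR quasi-likelihood test, adjusted p under 0.05 over all of them), and the median log2 fold change of all tested genes was -0.03. Levels are given in CPM, read counts scaled to a common library size with TMM factors. CPM is not corrected for transcript length, so levels are compared between libraries and not between genes. The CTRL and the PTX library numbered 1 stood apart from the others on the second principal component, which held 21.0% of the variance. Calls below that changed without this pair of libraries are named where they occur.

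Of the 8 genes, 2 were called higher in PTX (Sgk1 and Sgk3), 2 were called lower (Nr3c1 and Nr3c2), and the 4 marker genes were not called. Over all tested genes 19.0% were called higher and 20.1% lower, and nothing is read from the members' count because the same contrast was known when they were chosen. The groups did not overlap for the 4 called genes and overlapped for the 4 marker genes, beside 38.0% of all tested genes without overlap. With the replicate number as a block, which pairs the libraries, 4 members were called higher, since Tsc22d3 and Zbtb16 joined, and the same 2 were called lower, beside 25.7% of all tested genes called higher and 29.6% called lower in that fit. The plot of levels by library shows all 64 values.

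**Figure D1:**
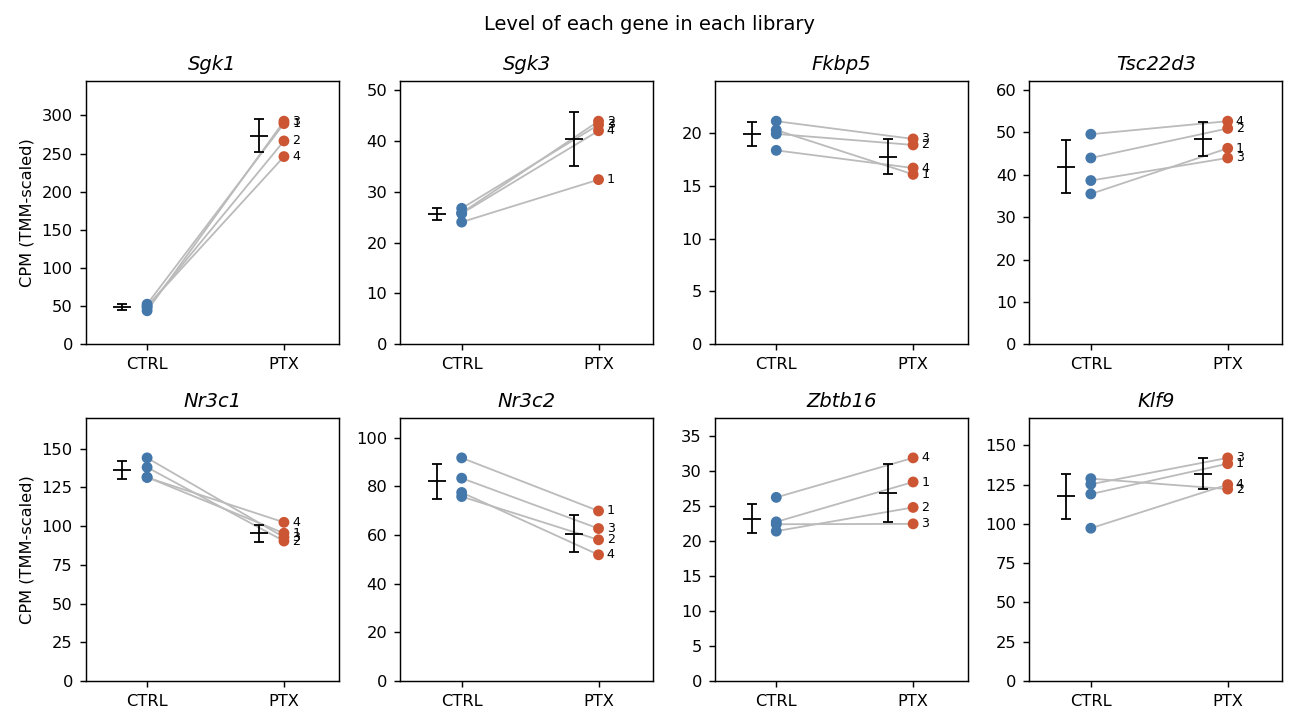
Level of each of the 8 genes in each library, in CPM on TMM-scaled library sizes, on linear axes that start at 0. Points are libraries, numbers and grey lines mark libraries with the same replicate number, and black bars are the mean ± SD of each group (n = 4). Sgk1 rises from 43.9 to 52.5 CPM in CTRL to 246.1 to 292.5 CPM in PTX, while Fkbp5, Tsc22d3, Zbtb16 and Klf9 overlap between the groups.

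Sgk1 (ENSMUSG00000019970, mm10 chromosome 10, 21882184 to 21999903) phosphorylates ion channel regulators, Ndrg1 and Foxo3. It was at 52.5, 48.1, 43.9 and 49.9 CPM in CTRL libraries 1 to 4 and at 289.3, 266.6, 292.5 and 246.1 CPM in PTX libraries 1 to 4. All 4 PTX libraries lay far above every CTRL library, with little spread inside either group. The means were 48.6 ± 3.61 CPM and 273.6 ± 21.7 CPM (SD, n = 4 each), a 5.63-fold higher level in PTX (log2 fold change 2.49, SE 0.09). The ratio within same-numbered pairs ran from 4.94 to 6.66. By fitted log2 fold change Sgk1 was number 270 among the 15959 tested genes. Over 13 other settings its log2 fold change lay between 2.45 and 2.61.

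Sgk1 has several annotated starts, and 6 promoter windows of 250 bases before to 50 bases after a start were searched. A relaxed glucocorticoid response element, the letters GNACA and TGTNC with 3 bases of any kind between them, on either strand, was found in 1 of them, as GAACAGAATGTTC beginning 188 bases before the start at 21993890. It occurs in 156 of 32851 RefSeq promoter windows of the same length (0.475%). The half-site AGAACA, on either strand, occurs in 19.0% of the windows. It was found at 3 of the 6 starts of Sgk1, and 2 of its 3 copies before the start at 21993890 overlap the full element. A match in letters is a description and not evidence of binding in these cultures. The window of the full element and the one just before the start covered by an L3mbtl1 peak are printed 5′ to 3′ from RefSeq (GRCm38.p6, the assembly of mm10), because they carry the receptor motif and the peak, with motif letters in capitals.
Sgk1, chr10:21993640-21993889, plus strand: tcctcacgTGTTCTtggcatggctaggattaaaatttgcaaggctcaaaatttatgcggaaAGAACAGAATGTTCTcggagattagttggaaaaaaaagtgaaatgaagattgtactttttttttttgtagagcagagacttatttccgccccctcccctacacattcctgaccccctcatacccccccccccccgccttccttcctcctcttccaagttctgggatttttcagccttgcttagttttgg
Sgk1, chr10:21994416-21994665, plus strand: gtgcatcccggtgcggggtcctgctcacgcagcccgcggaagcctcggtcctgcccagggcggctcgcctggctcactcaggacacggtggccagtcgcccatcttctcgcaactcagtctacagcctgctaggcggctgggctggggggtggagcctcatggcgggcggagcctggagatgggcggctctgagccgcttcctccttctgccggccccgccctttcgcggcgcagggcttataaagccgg
The first sequence holds the full element and a separate half-site 242 bases before its start, and the second holds none of the 4 motifs searched. The other 2 motifs were the cyclic AMP response element TGACGTCA (1.79% of windows) and a relaxed AP-1 site, TGANTCA with any base at N (7.81%), each on either strand.

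Sgk3 (ENSMUSG00000025915, chromosome 1, 9798130 to 9902570) is a related kinase that sits on endosomes through a phosphoinositide-binding domain, and its transcript is not known as a classical hormone target. It was at 24.1, 25.9, 26.8 and 25.7 CPM in CTRL and at 32.4, 43.9, 43.2 and 42.1 CPM in PTX. PTX library 1 was lower than the other PTX libraries but still above every CTRL library. Its mean went from 25.6 ± 1.13 to 40.4 ± 5.38 CPM, 1.58-fold higher (log2 fold change 0.66, SE 0.11). Without PTX library 1 the log2 fold change was 0.80.

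Both receptors were lower in PTX. Nr3c1, the glucocorticoid receptor (ENSMUSG00000024431, chromosome 18, 39410545 to 39519421), was at 131.6, 138.0, 144.1 and 131.4 CPM in CTRL and at 95.4, 90.4, 92.8 and 102.4 CPM in PTX. The highest PTX library lay below the lowest CTRL library. The level went from 136.3 ± 6.03 to 95.2 ± 5.21 CPM, 1.43-fold lower (log2 fold change -0.52, SE 0.07).

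Nr3c2, the mineralocorticoid receptor (ENSMUSG00000031618, chromosome 8, 76898083 to 77245012), was at 91.6, 75.7, 83.3 and 77.4 CPM in CTRL and at 69.8, 58.0, 62.6 and 51.8 CPM in PTX. The groups did not overlap, but the gap between CTRL library 2 and PTX library 1 was small. The level went from 82.0 ± 7.18 to 60.6 ± 7.59 CPM, 1.35-fold lower (log2 fold change -0.44, SE 0.11). Nr3c2 was no longer called without CTRL library 1 (log2 fold change -0.33) or without PTX library 4 (log2 fold change -0.30). Within a library, the ratio of Nr3c2 to Nr3c1 CPM was 0.696, 0.549, 0.578 and 0.589 in CTRL and 0.732, 0.642, 0.675 and 0.506 in PTX, so it overlapped between the groups.

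The 4 marker genes of receptor activity showed small differences, none of them called without the replicate block. Fkbp5 (ENSMUSG00000024222, chromosome 17, 28398753 to 28486149) encodes an Hsp90 cochaperone that holds back the glucocorticoid receptor and is itself induced by it. It was at 20.3, 19.9, 21.1 and 18.4 CPM in CTRL and at 16.1, 18.9, 19.4 and 16.7 CPM in PTX. PTX was lower in 4 of 4 same-numbered pairs, yet the groups overlapped. The means were 19.9 ± 1.16 and 17.8 ± 1.64 CPM (log2 fold change -0.17, SE 0.10), and Fkbp5 was not called in any of the 13 other settings.

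Tsc22d3, or Gilz (ENSMUSG00000031431, chromosome X, 140539528 to 140600522), is a leucine zipper protein that carries anti-inflammatory actions of glucocorticoids. It was at 35.5, 44.0, 38.6 and 49.6 CPM in CTRL and at 46.3, 51.0, 44.0 and 52.7 CPM in PTX. The groups overlapped, and PTX was higher in 4 of 4 pairs. The means were 41.9 ± 6.19 and 48.5 ± 4.03 CPM (log2 fold change 0.21, SE 0.11). The replicate block gave a log2 fold change of 0.22 (SE 0.07).

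Zbtb16, or Plzf (ENSMUSG00000066687, chromosome 9, 48651797 to 48836225), is a zinc finger repressor that glucocorticoids raise in many cell types. It was at 22.8, 21.4, 22.4 and 26.3 CPM in CTRL and at 28.5, 24.8, 22.5 and 31.9 CPM in PTX. PTX libraries 2 and 3 lay among the CTRL libraries, and PTX was higher in 4 of 4 pairs. The means were 23.2 ± 2.11 and 26.9 ± 4.14 CPM (log2 fold change 0.21, SE 0.12). With the replicate block the log2 fold change was 0.21 (SE 0.08).

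Klf9 (ENSMUSG00000033863, chromosome 19, 23141226 to 23168129) is a Kruppel-like factor induced by glucocorticoids and thyroid hormone in neurons. It was at 119.0, 128.8, 125.2 and 97.2 CPM in CTRL and at 138.3, 122.1, 142.0 and 125.0 CPM in PTX. The groups overlapped, and PTX was higher in 3 of 4 pairs. The means were 117.6 ± 14.2 and 131.9 ± 9.77 CPM (log2 fold change 0.17, SE 0.10), and Klf9 was not called in any other setting. The differences of Fkbp5, Tsc22d3, Zbtb16 and Klf9 ran from -0.17 to 0.21 on the log2 scale, against 2.49 for Sgk1.

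The promoters of Fkbp5 and Klf9 lie under L3mbtl1 peaks and are shown from RefSeq (GRCm38.p6) for comparison with Sgk1. Capitals mark the TGANTCA match of Klf9, which begins 89 bases before the start.
Fkbp5, chr17:28486150-28486399, minus strand: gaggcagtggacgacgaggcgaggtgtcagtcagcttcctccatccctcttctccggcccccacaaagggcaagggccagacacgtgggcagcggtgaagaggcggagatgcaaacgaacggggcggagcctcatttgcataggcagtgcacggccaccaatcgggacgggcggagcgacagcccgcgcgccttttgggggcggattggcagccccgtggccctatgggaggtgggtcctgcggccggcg
Klf9, chr19:23140976-23141225, plus strand: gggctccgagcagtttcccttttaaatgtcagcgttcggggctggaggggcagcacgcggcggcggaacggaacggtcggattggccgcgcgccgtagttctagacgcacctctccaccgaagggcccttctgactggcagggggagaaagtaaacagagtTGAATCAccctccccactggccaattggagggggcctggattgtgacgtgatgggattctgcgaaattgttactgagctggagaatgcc
Neither window holds a glucocorticoid element or half-site, which says only that these letters are absent from this window. Nr3c1 was left out of the promoter search by choice, so its starts were not examined for motifs. Of the other members, 5 were matched to a total of 12 promoter windows. Beyond those of Sgk1, 1 of the 3 Tsc22d3 windows held a half-site, 185 bases before the start at 140600522, and the Nr3c2 window held no match.

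Each tested gene was also ranked by how closely it followed Sgk1, as the root mean square difference of log2 CPM over the 8 libraries after centring each gene on its CTRL mean. The 5 nearest genes were Dmxl1 (0.08), Adamts1 (0.11), Rgs7 (0.17), Sertm1 (0.17) and Pcdh8 (0.18). Dmxl1 is linked to assembly of the vacuolar proton pump, Adamts1 is a secreted protease, Rgs7 a regulator of G protein signalling and Pcdh8 a protocadherin of synapses. Their log2 fold changes were 2.52, 2.54, 2.31, 2.65 and 2.61. Dmxl1 and Adamts1 stayed among the nearest 5 with paired differences and without the libraries numbered 1, and the other 3 did not.

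By the same measure the members lay far from Sgk1. The measure depends on the fold change by construction, and the members were chosen on their fold changes. Their ranks therefore restate those fold changes and add no separate support. Among the 15958 other tested genes Sgk3 was number 1688, Tsc22d3 4444, Zbtb16 4593, Klf9 4882, Fkbp5 9262, Nr3c2 12363 and Nr3c1 12958. The root mean square difference was 1.32 for Sgk3 and 2.13 for Nr3c1. The profiles plotted over libraries show this distance.

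**Figure D2:**
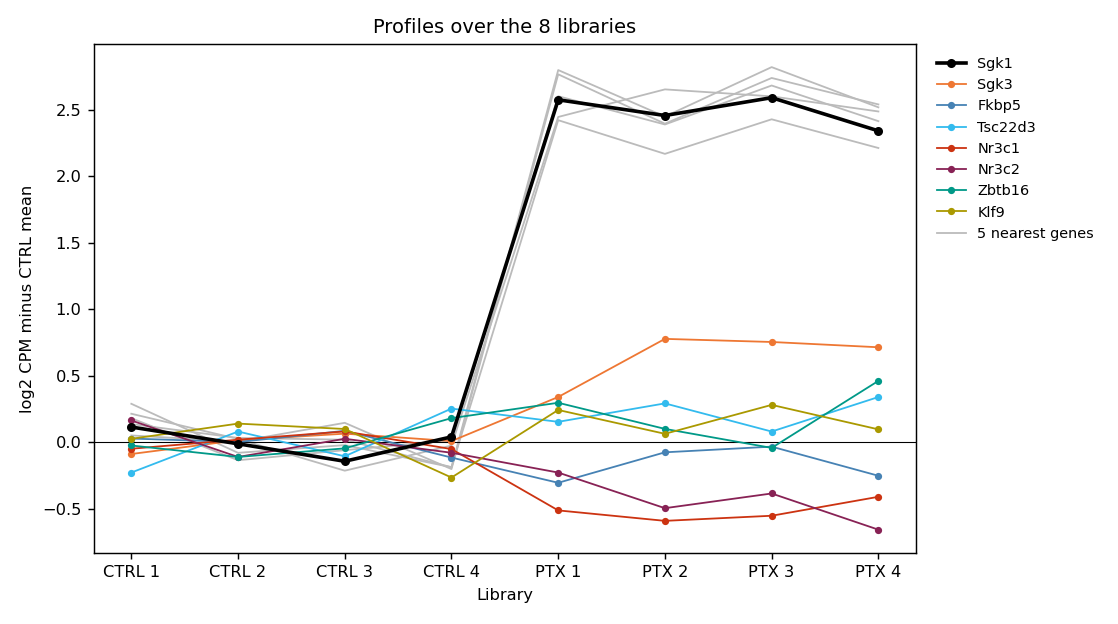
Log2 CPM of each gene minus its own CTRL mean, for the 4 CTRL and 4 PTX libraries. Lines only join the values of a gene; replicates have no order. Sgk1 (black) and its 5 nearest genes (grey) sit together in PTX, Sgk3 lies between, and the 6 other members stay within 0.7 of their CTRL mean.

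A list of 29 other genes known to be raised by glucocorticoids in brain or other tissues was set beside the members, of which 27 could be tested (Angptl4 and Hif3a could not). Of these, 8 rose (29.6%, beside 19.0% of all tested genes), 6 fell (22.2%, beside 20.1%) and 13 were not called. The median log2 fold change was -0.02, beside -0.03 over all tested genes. Some targets rose about as much as Sgk1 and others fell.

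The 4 largest rises came close to that of Sgk1 in size. Dusp1, a phosphatase that switches off MAP kinases, went from 8.04 ± 3.05 to 47.5 ± 10.7 CPM, 5.89-fold higher (edgeR adjusted p = 0.000104). Cdkn1a, the cell cycle inhibitor p21, was at 5.19, 6.40, 5.64 and 6.99 CPM in CTRL and at 25.7, 27.1, 28.7 and 31.2 CPM in PTX. It rose 4.66-fold (edgeR adjusted p = 1.71e-06), with no overlap and little spread. Nedd9, an adhesion scaffold, was at 51.9, 71.0, 77.0 and 85.9 CPM in CTRL and at 307.2, 273.1, 347.2 and 330.0 CPM in PTX, and it rose 4.40-fold (edgeR adjusted p = 5.62e-06). Per1, a circadian repressor, was at 10.7, 17.7, 13.4 and 16.7 CPM in CTRL and at 73.5, 53.1, 60.5 and 69.5 CPM in PTX. It rose 4.38-fold (edgeR adjusted p = 1.01e-05).

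Smaller rises were seen for Arl4d, a small GTPase (2.84-fold), Errfi1, an inhibitor of the EGF receptor (2.06-fold), and Bcl6, a transcriptional repressor (2.00-fold). Lcn2, an iron-binding secreted protein, rose 2.18-fold (edgeR adjusted p = 0.0294), and its call was lost when any of CTRL libraries 1, 3 and 4 or PTX libraries 2 and 3 was left out (edgeR adjusted p up to 0.0737). The measure of likeness to Sgk1 depends on the fold change by construction, and the 27 targets ranged widely in it. Among 15958 genes Cdkn1a was number 31, Nedd9 64, Per1 73 and Dusp1 225, while Glul was number 12266, Rhob 13272, Txnip 14871, Sesn1 15390 and Fam107a 15889, farther from Sgk1 than any of the marker genes.

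The 6 targets that fell were led in size by Fam107a, an actin-binding stress gene. It was at 147.3, 332.9, 352.6 and 296.9 CPM in CTRL and at 30.5, 88.9, 62.7 and 53.9 CPM in PTX. It fell 4.79-fold (edgeR adjusted p = 0.000561), and library 1 was lowest in both groups. Sesn1, a stress-induced regulator of TOR signalling, fell 2.28-fold (edgeR adjusted p = 0.000204). Sult1a1, a sulfotransferase, fell 2.16-fold, Arrdc2, an arrestin-domain protein, 1.94-fold, Txnip, which binds thioredoxin, 1.88-fold, and Rhob, a small GTPase, 1.48-fold.

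Among the targets not called were Nfkbia, the inhibitor of NF-kappaB (log2 fold change 0.05), and the metallothioneins Mt1 (-0.24) and Mt2 (-0.08). With the replicate block 10 targets were called higher, with Ddit4 and Cebpd added, and 10 lower, with Mertk, Glul, Klf15 and Mt1 added (25.7% and 29.6% of all tested genes in that fit). Without both libraries numbered 1 the counts were 9 and 7, beside 20.6% and 17.0% of all genes tested there.

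**Figure D3:**
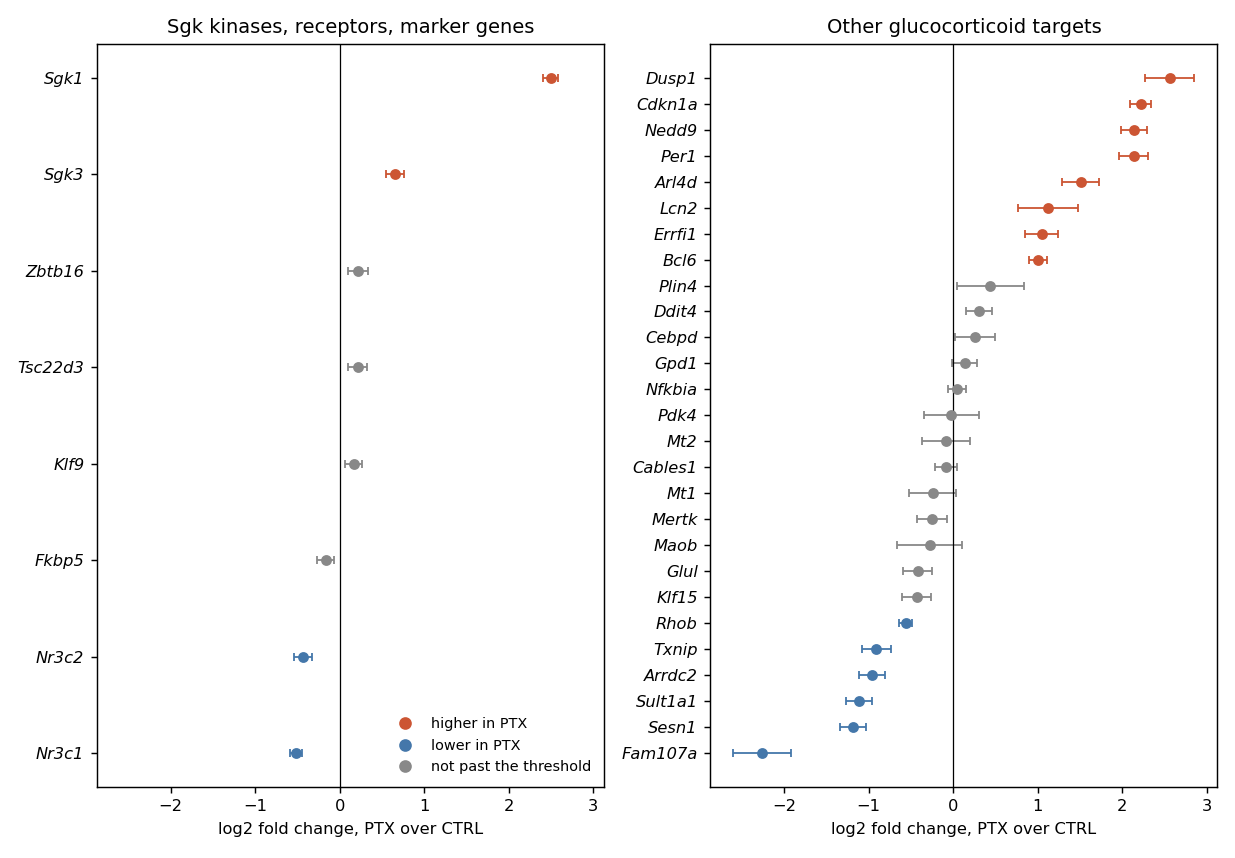
Log2 fold change of PTX over CTRL from edgeR for the 8 members (left) and the 27 tested glucocorticoid targets (right). Bars are ± 1 SE, and colour gives the call at adjusted p under 0.05. Sgk1 stands at 2.49 while Fkbp5, Tsc22d3, Zbtb16 and Klf9 lie near 0, and the other targets spread from -2.26 (Fam107a) to 2.56 (Dusp1).

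Markers of cell types moved between the same libraries, in which 19.0% of all tested genes were called higher and 20.1% lower. Of 6 excitatory neuron markers 5 fell (Camk2a, Neurod2, Neurod6, Tbr1 and Slc17a7), with a summed level of 425.8 to 545.0 CPM in CTRL and 220.3 to 250.8 CPM in PTX. Of 6 inhibitory neuron markers 5 rose (Gad2, Sst, Vip, Gad1 and Npy), with sums of 532.0 to 687.8 and 1017 to 1156 CPM. Of 10 astrocyte markers 5 fell (Aldoc, Aqp4, Slc4a4, Gfap and Slc1a2) and Fgfr3 rose, with sums of 6529 to 8701 and 4774 to 6539 CPM. The call of Fgfr3 was lost without CTRL library 2 (edgeR adjusted p = 0.0552) and that of Slc1a2 without any one of CTRL libraries 1 to 3 and PTX libraries 2 to 4 and with RLE scaling (edgeR adjusted p up to 0.143). Of 4 tested endothelial markers Flt1 rose, while Slco1a4 and Kdr were called lower both with the replicate block and without both libraries numbered 1. Pecam1 was called higher with the replicate block (log2 fold change 0.43, edgeR adjusted p = 0.0484) but not without both libraries numbered 1. Of 24 tested markers of microglia (7), oligodendrocytes (5), their precursors (5) and meningeal cells (7), 0 were called by edgeR, 0 had an unadjusted p under 0.05 and 0 were called by DESeq2. With the replicate block 12 of them were called, beside 25.7% of all tested genes called higher and 29.6% lower in that fit. Without both libraries numbered 1, 4 of them were called (2 of oligodendrocytes and 2 of precursors), beside 20.6% higher and 17.0% lower of all genes tested there. No listed marker was at 0 in all libraries. The microglial sum was 16.3 CPM in CTRL library 1 against 71.0 to 90.0 in the other CTRL libraries, and 19.7 in PTX library 1 against 56.5 to 156.6. The part of these shifts in the levels of Sgk3, Fam107a and the other genes above was not tested.

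Chaperones and coregulators of the receptors changed little in size. Of 19 genes 5 rose (26.3%, beside 19.0% of all tested genes) and 4 fell (21.1%, beside 20.1%), with a median log2 fold change of -0.01. The chaperone genes that rose were Stip1, which links Hsp70 to Hsp90 (1.22-fold), Dnajb1, an Hsp40 (1.28-fold), Hspa8, the constitutive Hsp70 (1.26-fold), Hsp90aa1, the inducible Hsp90 (1.21-fold), and Ptges3, the p23 cochaperone (1.19-fold). The calls of Hspa8, Hsp90aa1 and Ptges3 were lost without CTRL library 3, and those of Hsp90aa1 and Ptges3 also without CTRL library 2 or 4 and without the filter on low counts. Hsp90aa1 lost its call without PTX library 3 too, and over these settings the edgeR adjusted p reached 0.0505 for Hspa8, 0.122 for Hsp90aa1 and 0.108 for Ptges3. The constitutive Hsp90ab1 (log2 fold change -0.07) and Fkbp4, a cochaperone related to Fkbp5 (-0.05), were not called. The genes that fell were the coactivators Ncoa1 (1.44-fold) and Ncoa2 (1.35-fold) and the corepressors Nrip1 (1.34-fold) and Ncor1 (1.20-fold). The call of Ncor1 was lost in 11 of 13 other settings, each single library but CTRL library 2 among them (edgeR adjusted p up to 0.256).

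Of 10 genes that make, convert or export corticosteroids 8 could be tested, and Cyp11b1, the last enzyme of corticosterone synthesis, had 0 counts in all 8 libraries. The exporters Abcb1b and Abcb1a, both P-glycoproteins, rose. Abcb1b went from 15.6 ± 1.47 to 29.0 ± 4.40 CPM, 1.86-fold higher, and Abcb1a from 0.24 to 1.24 CPM, though these near-identical copies can share reads. Srd5a1, a 5-alpha reductase that inactivates corticosterone, fell 2.19-fold, and Cyp7b1, a steroid hydroxylase, fell 1.92-fold. Cyp11a1, the first enzyme of steroid synthesis, summed to 101 counts in CTRL and 1 count in PTX, a ratio of 91.6 after scaling for depth (95% exact binomial interval 16.1 to 3655, counting error only). Hsd11b1, which regenerates corticosterone inside cells, was not called (log2 fold change 0.74, edgeR adjusted p = 0.0632) but was with the replicate block (edgeR adjusted p = 0.000411) and without both libraries numbered 1 (edgeR adjusted p = 0.0352).

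Few kinases and substrates around Sgk1 rose. Of 20 listed genes 18 could be tested, 1 rose (5.56%, beside 19.0% of all tested genes) and 5 fell (27.8%, beside 20.1%), and the median log2 fold change was -0.27. The gene that rose was Nedd4l, the ubiquitin ligase that Sgk1 phosphorylates and restrains (1.57-fold). Among the genes that fell were Akt2 (1.37-fold), Foxo3, a transcription factor that Sgk1 phosphorylates (1.35-fold), Mapkap1, a TOR complex subunit needed for Sgk1 activation (1.34-fold), and Akt1 (1.24-fold). The call of Akt1 was lost without any one of CTRL libraries 1 and 3 and PTX libraries 1, 3 and 4, and without both libraries numbered 1 (edgeR adjusted p up to 0.0882). The call of Foxo3 was lost without any one of CTRL libraries 3 and 4 and PTX libraries 1, 2 and 3 (edgeR adjusted p up to 0.123). Ndrg1, whose phosphorylation is used as a readout of Sgk1, was not called (log2 fold change -0.14). With the replicate block 2 of the 18 were called higher and 11 lower, beside 25.7% and 29.6% of all tested genes.

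Several relatives of the marker genes passed the threshold. Tsc22d2 rose 3.16-fold and Tsc22d1 1.64-fold, while Tsc22d4 was not called except with the replicate block (edgeR adjusted p = 0.00914). Of 12 other FK506-binding proteins 33.3% were called higher and 16.7% lower, beside 19.0% and 20.1% of all tested genes: 4 rose (Fkbp14 1.31-fold, Fkbp1a 1.41-fold, Fkbp11 and Fkbp7) and 2 fell (Fkbp8 1.33-fold and Fkbp1b 1.61-fold). The calls of Fkbp11 and Fkbp7 were lost when CTRL library 2, CTRL library 3 or PTX library 2 was left out, that of Fkbp11 also without PTX library 3, and that of Fkbp7 also without CTRL library 4, without PTX library 4 and without the low count filter. The edgeR adjusted p reached 0.0717 for Fkbp11 and 0.118 for Fkbp7. The call of Fkbp1b was lost without PTX library 3 (edgeR adjusted p = 0.0508). Of 14 other Kruppel-like factors 4 rose (28.6%, beside 19.0% of all tested genes) and 6 fell (42.9%, beside 20.1%), with a median log2 fold change of -0.49. Of those that fell, Klf11 lost its call without any one of CTRL libraries 1 and 4 and PTX libraries 2 to 4 (edgeR adjusted p up to 0.113), and Klf16 without any one of CTRL libraries 1 to 3 and PTX libraries 3 and 4 (edgeR adjusted p up to 0.078). With the replicate block 4 of the 14 were called higher and 8 lower, beside 25.7% and 29.6% of all tested genes. Klf14, which had only 0.41 ± 0.25 CPM in CTRL, reached 16.6 ± 3.47 CPM in PTX (39.4-fold, edgeR adjusted p = 2.65e-06). Klf5 rose 4.03-fold (edgeR adjusted p = 7.79e-06), and Klf10 fell 1.93-fold (edgeR adjusted p = 3.20e-05).

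L3mbtl1 is a chromatin reader that binds methylated histone lysines through MBT domains. The authors' list held 4677 peaks with a score from 8.17 to 52.2, which is their own value. A peak lay within 2000 bp of an end of 4 of the 8 members, beside 26.0% of the tested genes with a position. Klf9 had a broad peak over its start (23139851 to 23142363, width 2513 bp) with a score of 27.7, number 29 in the list. The peak of Fkbp5 covered its upper end (28484501 to 28486479, score 15.8, number 626). Sgk3 had a peak that began 213 bp inside its lower coordinate (9798343 to 9799581, score 10.6), and Zbtb16 had one inside its upper end (48834054 to 48836214, score 10.9) and one just beyond it (48836507 to 48836695, score 10.0).

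Sgk1 was not among these 4, because its annotated span reaches far upstream. Its peak (21993946 to 21995324, score 10.3, number 2602) lay 4579 bp inside the gene from the nearer end, and covered the annotated start at 21994666. The same peak began 56 bp from the start at 21993890, whose window holds the glucocorticoid element printed above. The peak of Nr3c2 (76900594 to 76901792, score 9.16) lay 2511 bp inside the gene and 538 bp from a RefSeq start. Nr3c1 held 2 peaks 27737 bp or more from its nearer end, with scores of 18.4 and 25.8. Their distance to annotated starts inside Nr3c1 was not measured, because the promoter search left out its chromosome. These peaks may therefore lie at a start of the gene. Tsc22d3 had no peak within 4797 kb, and the X chromosome held 26 peaks in all. With a window of 5000 bp Sgk1 and Nr3c2 joined, giving 6 of 8, beside 28.4% of the tested genes. Among the called members Sgk3 had a peak within 2000 bp of an end of its annotated span. Sgk1, Nr3c1 and Nr3c2 had none there but held peaks inside the gene, and no relation of peaks to change was tested.

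**Figure D4:**
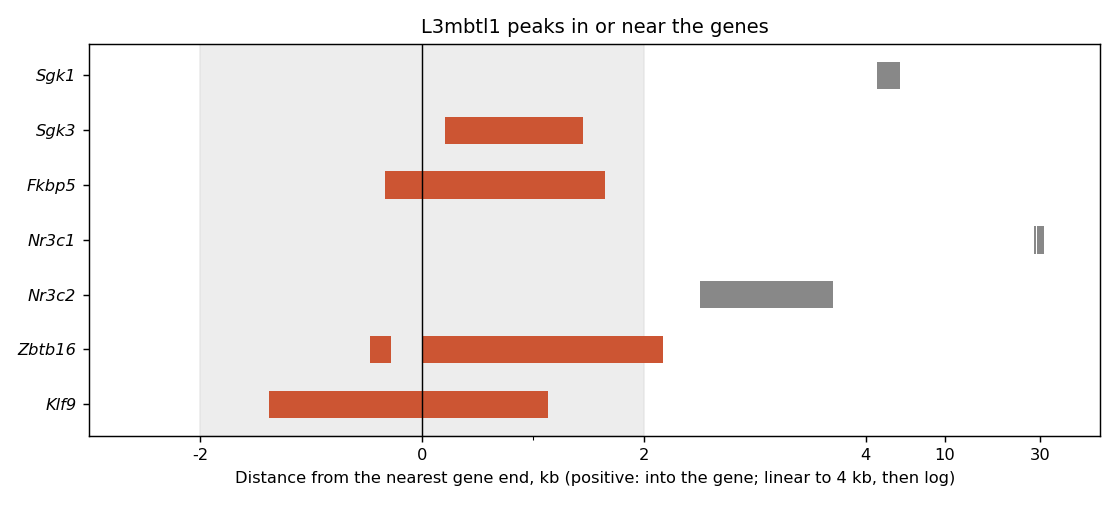
Position of L3mbtl1 peaks relative to the nearer gene end for the 7 members with a peak inside or near them. The axis is the distance in kb into the gene (positive) or outside it (negative), linear to 4 kb and logarithmic beyond. Red bars lie within 2000 bp of the end (shaded) and grey bars do not; Klf9, Fkbp5, Sgk3 and Zbtb16 have peaks there, and those of Sgk1, Nr3c2 and Nr3c1 lie inside the gene.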

How the data were processed

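The authors deposited unnormalized read counts for each Ensembl gene, in 1 table per library. Per the labels' protocols, ribosomal RNA was depleted before ScriptSeq v2 libraries were made. Tools named, without roles, in the submitters' processing notes are Bowtie2 2.2.4, TopHat2 2.0.9, CASAVA 1.8 and HTSeq 0.6.1, with build mm10. Whether counting used strand is not given in the sources used here, so reads of overlapping or antisense genes cannot be told apart. Within the spans of 6 members lie other annotated genes, such as Gm46215 in Sgk1 and Gm10649 in Nr3c2 (69 counts over all libraries). The 5 summary lines that end a table entered no library size: 19.9% to 26.8% of their sum with the genes lay outside genes, 15.2% to 20.5% was not unique and 0.58% to 0.675% was ambiguous. Of 43629 identifiers 42462 matched a symbol. No library was a copy of another (smallest chi-square per degree of freedom within a group 9.45).

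For ChIP-seq the authors deposited 1 list of scored peaks for all 6 samples. How peaks were called, what the score means and how the L3mbtl1-/- samples entered is not given in the sources used here, so the score only ranks peaks.

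PTX and CTRL were compared with edgeR 4.0.16 in R 4.3.3 (quasi-likelihood F test, TMM, filterByExpr, group as the only term), with Benjamini-Hochberg adjustment over 15959 genes and a threshold of 0.05, and the code was tested on simulated data. SE is the log2 fold change divided by the square root of F. Log2 CPM used a prior count of 2. Alternatives were RLE scaling, no filter, DESeq2 1.42.0, the replicate number as a block, each library left out in turn, and both libraries numbered 1 left out. Replicate numbers come from the sample titles. Deviations of same-numbered libraries from their group means correlated at 0.77, 0.566, 0.153 and 0.608 over genes, and those of differently numbered libraries at -0.501 to 0.209. Each same-number correlation was over 0.1, so the numbers were taken to pair the libraries, but CTRL library 3 correlated more with PTX libraries 2 (0.207) and 4 (0.209) than with PTX library 3. Peaks were set against RefSeq (GRCm38.p6) gene ends, and 1 shared base counted as overlap.

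The members and the gene lists were chosen with earlier results of these data known. Named genes are the members, the 3 called genes of smallest p in each list (all where 5 or fewer were called), the called cell markers and the 5 genes nearest to Sgk1. Other genes of the lists were named after their values were seen. A few list genes that this rule names are left out of the text.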

Additional observations from a re-analysis of the deposited data

Results flagged for a closer look

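Sgk3 in PTX library 1 stood apart from the other PTX libraries. It had 32.4 CPM against 42.1 to 43.9 CPM in the other 3, and its gap to the nearest was 0.836 of the group's range, above Dixon's 95% critical value for 4 samples. Both groups of each of the 8 members were checked in this way, 16 in all, and chance flags about 1 in 20 groups. The same library held low microglial and high meningeal marker sums (19.7 CPM against 56.5 to 156.6, and 339.0 CPM against 108.0 to 137.7 in the other PTX libraries). CTRL library 1 held such sums too (16.3 CPM against 71.0 to 90.0, and 417.1 CPM against 146.4 to 218.9 in the other CTRL libraries). Its Sgk3 level was 24.1 CPM against 25.7 to 26.8 CPM in the other CTRL libraries and was not flagged. The part of these sums in the Sgk3 value of PTX library 1 was not tested.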

How the results depend on the processing

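Of 1144 values (88 named genes under 13 alternatives) 1063 kept their direction and their side of the threshold, 79 lost the call, 2 gained it and none changed direction. All named genes but Tsc22d3, Zbtb16, Klf9 and Fkbp5 were named because they were called or were called already. Only these 4 could gain a call, so the few gains follow from the choice of genes. With the replicate block, 4 members were called higher in place of 2, and 10 glucocorticoid targets lower in place of 6, and the counts over all genes were 4097 higher and 4723 lower. Among the members the block changed no call other than those of Tsc22d3 and Zbtb16. Leaving out 1 library at a time, 1 to 2 members were called lower, the loss being Nr3c2. Over all alternatives 2519 to 4097 genes were called higher and 2207 to 4723 lower. Of the 5 genes nearest to Sgk1, 2 were shared with paired differences and 2 without the libraries numbered 1. Members with a peak numbered 4 within 1000 bp (24.4% of tested genes), 6 within 5000 bp (28.4%), 4 with at least 50% of the peak in the window (25.5%) and 3 with the upper 50% of peaks by score (14.7%). With 4 libraries a group, the SE of Tsc22d3, Zbtb16, Klf9 and Fkbp5 was 0.10 to 0.12 on the log2 scale, and none of the 4 was called without the block.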

Other observations

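Other steroid hormone receptors moved in both directions. Of 7 sex steroid and estrogen-related receptors 3 rose and 3 fell. Esr2, the estrogen receptor beta, went from 0.18 ± 0.10 to 3.08 ± 0.60 CPM (SD, n = 4 each), 17.1-fold higher (edgeR adjusted p = 1.94e-05). Esr1, the estrogen receptor alpha, rose 1.95-fold and Esrrb, an estrogen-related receptor, 3.10-fold. Among those that fell, Pgr, the progesterone receptor, fell 1.85-fold and Esrrg, another estrogen-related receptor, 1.94-fold. None of the 7 had an L3mbtl1 peak within 2000 bp of an end, beside 26.0% of the tested genes with a position.

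L3mbtl1 peaks lay within 2000 bp of an end of 26.0% of the tested genes with a position. They did so for 9 of 29 other glucocorticoid targets, 7 of 19 chaperones and coregulators and 7 of 20 genes around Sgk1. The counts were 8 of 14 for other Kruppel-like factors, 3 of 12 for other FK506-binding proteins, 2 of 3 for Tsc22d3 relatives and 1 of 10 for steroid supply. No list was tested against the share over all genes. Among the targets with a peak, Dusp1 and Bcl6 rose while Txnip, Arrdc2, Sesn1 and Rhob fell.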
